A study of Mus musculus with 12 samples.

Results

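The 7 globin genes examined here are 3 alpha-like genes, the embryonic Hba-x and the adult Hba-a1 and Hba-a2, and 4 beta-like genes, the embryonic Hbb-y and Hbb-bh1 and the adult Hbb-bs and Hbb-bt. They are 7 of the 22467 transcripts counted, found by matching transcript identifiers to GENCODE gene symbols on GRCm38. They were proposed with the RPF values of these embryos known, so their values by genotype are given as a description and no test supports them. At E8.5 the embryonic genes carried nearly all globin RPF reads, and the RPF level of the 3 embryonic globins was higher in every Rpl10a LOF/LOF embryo than in any wild-type embryo, as it was for 9.92% of the 12576 transcripts tested. The adult beta genes had RNA in every embryo but at most 20 RPF counts. Their coding sequences differ at a single position. How reads shared between them were counted is not given, so these counts are uncertain.

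Globins carry oxygen in red blood cells as tetramers of alpha-like and beta-like chains, each holding a heme group. In the mouse the first red cells arise in the blood islands of the yolk sac, enter the embryo's circulation and contain mainly embryonic chains, while cells made later in the fetal liver and bone marrow contain adult chains. In each gene cluster the embryonic genes lie nearer than the adult genes to the distant enhancers that drive the cluster.

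Ribosome profiling and RNA-seq were performed on the same 6 whole mouse embryos at E8.5, 3 wild-type (Rpl10a +/+) and 3 Rpl10a LOF/LOF, giving 12 libraries. Both alleles lie on a C57BL/6 background, and the LOF allele encodes RPL10A, a large-subunit ribosomal protein also called uL1, with an amino-terminal extension and reduced function. Embryos were dissected and lysed singly with cycloheximide, none were pooled, and the sources used here do not say whether yolk sac was kept. RPF counts are reads from ribosome-protected fragments with the A site in the coding sequence (CDS), and RNA counts are reads on the whole transcript.

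RPF libraries held 7041357 to 10863499 counts and RNA libraries 9132521 to 26561843. The targeted gene Rpl10a had 1562 to 1679 CPM (counts scaled to library totals, with TMM factors) in wild-type and 940 to 1125 CPM in Rpl10a LOF/LOF RPF libraries. Y-linked transcripts summed to 163 to 183 CPM in wild-type RPF libraries and to 154 CPM in Rpl10a LOF/LOF replicate 2, whereas Rpl10a LOF/LOF replicate 1 had 9.09 CPM and replicate 3 had 0.384 CPM. Genotype was therefore mixed with the sex of the embryos, and these cannot be told apart for the group means. The 4 embryos at 154 CPM or above give 1 comparison within a sex.

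All members have 3 exons. On GRCm38 the alpha-like genes lie on the plus strand of chromosome 11, with Hba-x at chr11:32276400-32278116, Hba-a1 at chr11:32283511-32284465 and Hba-a2 at chr11:32296489-32297298. The beta-like genes lie on the minus strand of chromosome 7, with Hbb-y at chr7:103851749-103853216, Hbb-bh1 at chr7:103841637-103843164, Hbb-bs at chr7:103826534-103827928 and Hbb-bt at chr7:103812524-103813996. The alpha-like CDS are 429 bases and the beta-like CDS 444 bases long.

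A stretch of exon 2 shows why reads of the embryonic and adult alpha genes can be told apart. Capitals mark positions at which Hba-x differs from the adult pair over bases 189 to 218 of the CDS, at chr11:32277662-32277691 for Hba-x, chr11:32284017-32284046 for Hba-a1 and chr11:32296834-32296863 for Hba-a2.
Hba-x: cATGACCgcCGtAgGGGatgcGgTTAAGAG
Hba-a1 and Hba-a2: cGCCGATgcTCtGgCCAatgcTgCAGGCCA
Hba-x and Hba-a1 shared 62.0% of their CDS positions, and every 30-base window of the counted Hba-x CDS was absent from all other transcripts of the table.

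The same holds for the embryonic beta genes, shown over bases 205 to 234 of the CDS in exon 2, with capitals where the genes do not all carry the same base. The windows lie at chr7:103852829-103852858 for Hbb-y, chr7:103842772-103842801 for Hbb-bh1, chr7:103827529-103827558 for Hbb-bs and chr7:103813520-103813549 for Hbb-bt, all on the minus strand.
Hbb-y: CtGacTGcTttTGGAGAGTCCAtTaaGAaT
Hbb-bh1: CtGacATcCttGGGCTTGGGGGtTaaGAaC
Hbb-bs and Hbb-bt: AtAacTGcCttTAACGATGGCCtGaaTCaC
Hbb-y and Hbb-bh1 shared 76.4% of CDS positions. Of the 30-base windows in their counted CDS, 100% of those of Hbb-y and 99.7% of those of Hbb-bh1 were found in no other transcript.

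The copies within each adult pair differ at a single CDS position, C381T from Hba-a1 to Hba-a2 and C417T from Hbb-bs to Hbb-bt, with positions counted from the first base of the start codon. The base that tells the copies apart is in capitals in windows of exon 3, at chr11:32284329-32284358, chr11:32297146-32297175, chr7:103826677-103826706 and chr7:103812668-103812697 in the order shown.
Hba-a1: catgcctctctggaCaaattccttgcctct
Hba-a2: catgcctctctggaTaaattccttgcctct
Hbb-bs: gtggctggagtggcCgctgccctggctcac
Hbb-bt: gtggctggagtggcTgctgccctggctcac
Of the 30-base windows in the counted CDS, 8.82% of those of Hba-a1 and of Hba-a2 and 3.66% of those of Hbb-bs and of Hbb-bt were found in no other transcript. Over the whole transcripts, which carry the RNA counts, these shares were 28.5% for Hba-a1, 8.76% for Hba-a2, 33.1% for Hbb-bs and 40.5% for Hbb-bt. How reads that match several transcripts were counted is not given in the sources used here, so the counts of the 4 adult genes are uncertain, those of RPF most of all.

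Hbb-bh1, an embryonic beta-like globin, had the highest globin level per kilobase in every library. Its RPF counts were 7298, 3377 and 12217 in wild-type replicates 1 to 3 and 10937, 22501 and 15638 in Rpl10a LOF/LOF replicates 1 to 3. Its RNA counts in the same order were 2849, 5313 and 16681, then 13838, 22794 and 6753. Per kilobase of counted CDS, its RPF level ranked between 2 and 133 among 12574 transcripts, with the best rank in Rpl10a LOF/LOF replicate 2.

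Hba-x, the embryonic alpha-like zeta globin, followed. It had 5897, 2857 and 10312 RPF counts in wild-type and 9112, 18747 and 13757 in Rpl10a LOF/LOF embryos. The RNA counts of Hba-x were 2012, 3169 and 11319 in wild-type and 8995, 16623 and 5505 in Rpl10a LOF/LOF embryos. Per kilobase Hba-x ranked between 4 and 159 in RPF and between 43 and 381 in RNA.

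Hbb-y, the embryonic epsilon-y beta-like globin, ranked next in RPF. Its RPF counts were 1655, 771 and 3979 in wild-type and 3834, 7558 and 6812 in Rpl10a LOF/LOF embryos. Its RNA counts were 872, 1387 and 5979 in wild-type and 5661, 9333 and 3823 in Rpl10a LOF/LOF embryos. For all 3 embryonic genes the wild-type RPF counts were lowest in replicate 2 and highest in replicate 3.

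The alpha-like and beta-like embryonic levels kept a narrow ratio across embryos. Per kilobase, Hba-x was 0.638 to 0.717 times the sum of Hbb-y and Hbb-bh1 in RPF libraries. In RNA libraries the ratio was 0.356 to 0.417, so the ranges of RPF and RNA did not overlap. The RNA ratio depends on the length of the Hba-x transcript used, which starts upstream of its RefSeq start site.

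The adult genes were far below the embryonic genes in RPF. In RNA per kilobase Hbb-bs was below Hbb-y in 5 of the 6 embryos, and above it in wild-type replicate 2, at 123 against 84.1 CPM per kilobase. Hbb-bs, an adult beta globin, had 463, 2018 and 2754 RNA counts in wild-type and 2446, 2846 and 2082 in Rpl10a LOF/LOF embryos. Its RPF counts were 1, 4 and 6 in wild-type and 4, 9 and 20 in Rpl10a LOF/LOF embryos. Its RNA level per kilobase ranked between 133 and 804 among 12574 transcripts and its RPF level between 9040 and 12491.

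Hbb-bt, the other adult beta globin, had 80, 387 and 529 RNA counts in wild-type and 562, 596 and 416 in Rpl10a LOF/LOF embryos. Its RPF counts were 3, 0 and 1 in wild-type and 2 in each Rpl10a LOF/LOF embryo. The count of 0 in wild-type replicate 2 allows up to 3 counts, or 0.351 CPM. With 0 to 3 RPF counts per embryo, no order among embryos can be read for this gene.

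The adult alpha globins Hba-a1 and Hba-a2 encode the same kind of chain. Hba-a2 had 108, 298 and 514 RNA counts in wild-type and 447, 589 and 384 in Rpl10a LOF/LOF embryos. Its RPF counts were 5, 3 and 11 in wild-type and 17, 22 and 20 in Rpl10a LOF/LOF embryos. Hba-a1 had 3, 8 and 22 RNA counts in wild-type and 24, 39 and 23 in Rpl10a LOF/LOF embryos, and its RPF counts were 6, 5 and 23 in wild-type and 18, 35 and 35 in Rpl10a LOF/LOF embryos. Hba-a2 thus held 93.8% to 97.4% of the RNA counts of the pair but 32.4% to 48.6% of its RPF counts, and the split of both depends on how shared reads were assigned.

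**Figure D1:**
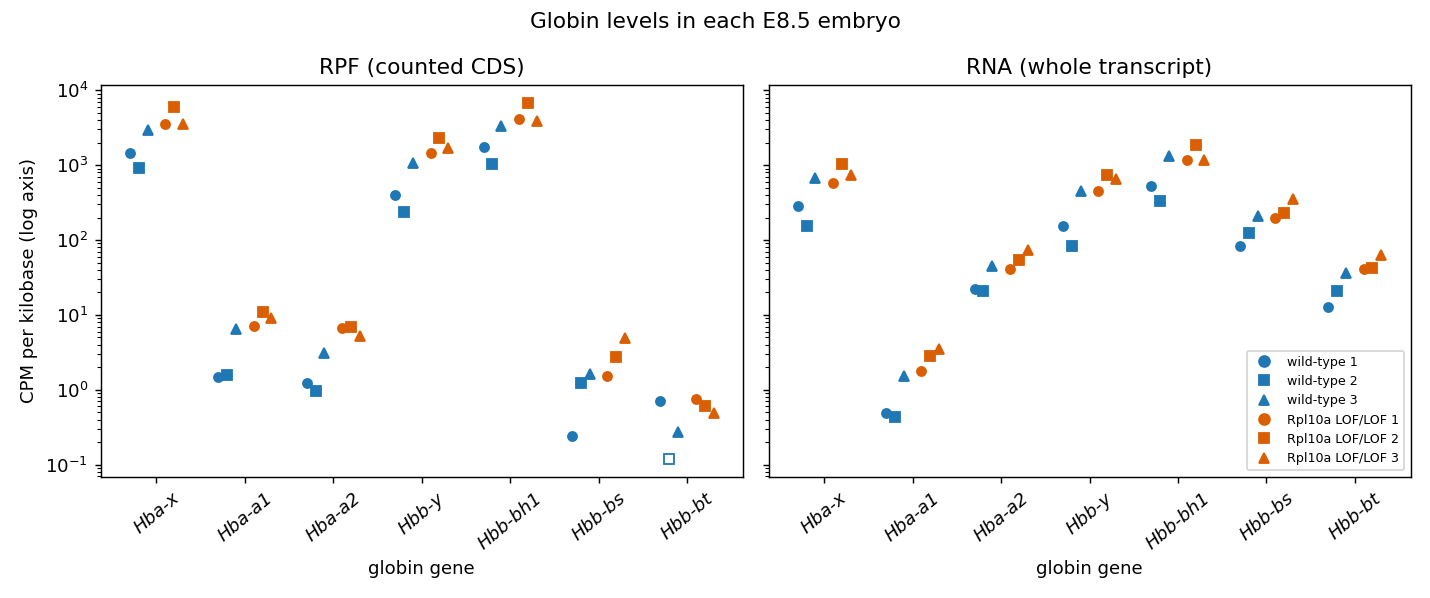
Level of each globin gene in each embryo as CPM per kilobase on a log axis, RPF per kilobase of counted CDS on the left and RNA per kilobase of transcript on the right, with blue wild-type and orange Rpl10a LOF/LOF embryos and 1 symbol per replicate. The open square marks the library with 0 counts of Hbb-bt and stands at an arbitrary height. The embryonic Hba-x, Hbb-y and Hbb-bh1 lie far above the adult genes in RPF, whereas Hbb-bs RNA reaches 355 CPM per kilobase.

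Family composition followed the same pattern. Of the alpha-like RPF counts, 99.6% to 99.8% came from Hba-x, and of the beta-like RPF counts 99.9% to 100.0% came from Hbb-y and Hbb-bh1. In RNA, the embryonic share was 91.2% to 96.4% of alpha-like and 73.6% to 90.3% of beta-like counts. The lowest embryonic shares in RNA were those of wild-type replicate 2, where adult genes made up 8.81% of alpha-like and 26.4% of beta-like counts. Each embryo had a larger adult share in RNA than in RPF, in both families. Of the 30-base windows in the counted CDS of each adult beta gene, 3.66% were found in no other transcript. Over the whole transcripts these shares were 33.1% for Hbb-bs and 40.5% for Hbb-bt. The part of the handling of shared reads in this contrast was not tested.

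RPF per RNA, both per length and relative to the median transcript tested, was high for the 3 embryonic genes. On this log2 scale Hba-x stood at 1.62, 1.83 and 1.35 in wild-type and 1.88, 1.76 and 1.49 in Rpl10a LOF/LOF embryos, above 93.0% to 96.8% of the transcripts tested. The Hba-x transcript used starts upstream of its RefSeq start site. With the same counts, a shorter length would lower these values, which was not computed. The mean over 6 embryos was 1.66 ± 0.20 (SD, n = 6) for Hba-x, 0.93 ± 0.19 (SD, n = 6) for Hbb-bh1 and 0.70 ± 0.16 (SD, n = 6) for Hbb-y. In all 6 embryos the order was Hba-x, then Hbb-bh1, then Hbb-y. The Hbb-bh1 and Hbb-y values overlapped between embryos, from 0.60 to 1.12 and from 0.50 to 0.90.

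RPF per RNA of 3 adult genes lay far below the median transcript. It was -4.40 ± 0.70 (SD, n = 6) for Hba-a2, -7.71 ± 0.80 (SD, n = 6) for Hbb-bs, and -6.78 ± 1.18 (SD, n = 5) for Hbb-bt, with the embryo at 0 RPF counts left out. Hba-a1 was the exception at 1.07 ± 0.29 (SD, n = 6). Because most windows of these CDS occur in a second transcript, the ratio was also taken per 30-base window found in no other transcript, a choice made after seeing the data. It then stood at -4.49 for Hbb-bs, -3.26 for Hbb-bt, -4.37 for Hba-a2 and 2.81 for Hba-a1. The low RPF per RNA of Hbb-bs, Hbb-bt and Hba-a2 remained on that scale, and the part of the handling of shared reads in it was not tested. The Hba-a1 transcript used starts upstream of its RefSeq start site, and the part of those bases in its values was not tested.

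**Figure D2:**
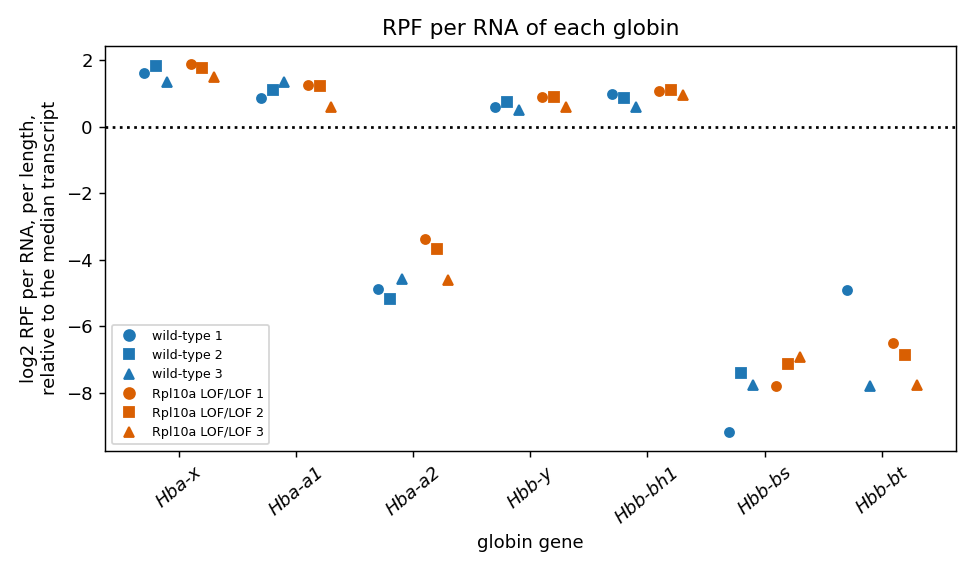
Log2 RPF per RNA of each globin, both per length and relative to the median transcript tested (dotted line at 0), with 1 point per embryo and colours for genotype. Hba-x, Hba-a1, Hbb-y and Hbb-bh1 lie above the line in every embryo, and Hba-a2, Hbb-bs and Hbb-bt lie between -3.39 and -9.19.

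The RPF levels of the embryonic globins are given first by embryo. Hbb-bh1 had 667, 395 and 1274 CPM of RPF in wild-type and 1594, 2618 and 1487 CPM in Rpl10a LOF/LOF embryos. Hba-x had 539, 334 and 1075 CPM in wild-type and 1328, 2182 and 1308 CPM in Rpl10a LOF/LOF embryos. Hbb-y had 151, 90.2 and 415 CPM in wild-type and 559, 880 and 648 CPM in Rpl10a LOF/LOF embryos. In each case every Rpl10a LOF/LOF embryo lay above every wild-type embryo, and wild-type replicate 3 came closest.

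The ratio of the Rpl10a LOF/LOF to the wild-type mean was 2.44 for Hbb-bh1, 2.47 for Hba-x and 3.18 for Hbb-y. The edgeR fit over all transcripts gave log2 differences in RPF of 1.29 (standard error 0.34), 1.31 (standard error 0.34) and 1.67 (standard error 0.42). For the adult alpha genes it gave 1.51 (standard error 0.45) for Hba-a1 and 1.78 (standard error 0.40) for Hba-a2, on 3 to 35 RPF counts per library. Hba-a1 had 0.548, 0.585 and 2.40 CPM in wild-type and 2.62, 4.07 and 3.33 CPM in Rpl10a LOF/LOF embryos, with no overlap.

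For Hba-a1 and Hba-a2, wild-type replicate 3 was the only wild-type embryo above 0.75 CPM, so both passed the filter, which asked for 3 RPF libraries above 0.75 CPM, through the Rpl10a LOF/LOF embryos. The adult beta genes did not pass it, and their RPF values overlapped between genotypes. Of the 5 globins that passed, all had their Rpl10a LOF/LOF embryos above their wild-type embryos in RPF, against 9.92% of the 12576 transcripts tested. Hbb-y and Hba-a2 were below an FDR of 0.1 in edgeR's quasi-likelihood test, against 1.05% of the transcripts tested in that direction and 2.19% in either. Both were below it in RPF and not in RNA, as were 0.557% of transcripts in that direction. These globins were chosen from this contrast and passed the filter partly through the embryos in which they are high, so neither count is evidence about them. Without wild-type replicate 3 all 5 were below this FDR, as were 151 of all transcripts. Without wild-type replicate 1, wild-type replicate 2, Rpl10a LOF/LOF replicate 1 or Rpl10a LOF/LOF replicate 3 none were. Those fits called 12, 4, 191 and 40 of all transcripts in that order. In the fits compared, the lowest RPF log2 difference of these 5 globins was 0.97, for Hbb-bh1.

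In RNA none of the 5 globins past the filter was called, and the genotypes overlapped for 2 of the 3 embryonic genes. Hbb-y RNA was 98.4, 53.2 and 288 CPM in wild-type and 290, 470 and 410 CPM in Rpl10a LOF/LOF embryos, a log2 difference of 1.40 (standard error 0.47). Hba-x RNA was 227, 122 and 545 CPM in wild-type and 461, 837 and 590 CPM in Rpl10a LOF/LOF embryos, a log2 difference of 1.08 (standard error 0.43). Hbb-bh1 RNA was 322, 204 and 804 CPM in wild-type and 710, 1148 and 724 CPM in Rpl10a LOF/LOF embryos, a log2 difference of 0.96 (standard error 0.40). Wild-type replicate 3 lay above 1 Rpl10a LOF/LOF embryo for Hba-x and above 2 for Hbb-bh1, and below all 3 by a narrow margin for Hbb-y.

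RNA values of the adult genes had higher means in Rpl10a LOF/LOF embryos. Hbb-bs RNA was 52.3, 77.4 and 133 CPM in wild-type and 125, 143 and 223 CPM in Rpl10a LOF/LOF embryos, with wild-type replicate 3 above Rpl10a LOF/LOF replicate 1. Hbb-bt RNA was 9.03, 14.8 and 25.5 CPM in wild-type and 28.8, 30.0 and 44.6 CPM in Rpl10a LOF/LOF embryos, without overlap. Hba-a2 RNA was 12.2, 11.4 and 24.8 CPM in wild-type and 22.9, 29.7 and 41.2 CPM in Rpl10a LOF/LOF embryos. Hbb-bs and Hbb-bt were left out by the filter on RPF. In an edgeR fit without that filter their RNA log2 differences were 0.87 (standard error 0.21, FDR = 0.028) and 1.00 (standard error 0.22, FDR = 0.013), both below the threshold, where 1.39% of 21889 transcripts were called higher. Adult RNA was highest in Rpl10a LOF/LOF replicate 3, whereas embryonic RNA was highest in Rpl10a LOF/LOF replicate 2.

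Of the 7 genes, 3 had every Rpl10a LOF/LOF embryo above every wild-type embryo in RNA (Hba-a1, Hbb-y and Hbb-bt), and 2 of these are among the 5 past the filter, against 10.2% of the transcripts tested. None of the 5 was below an FDR of 0.1 in RNA by edgeR, against 1.77% of transcripts called higher and 5.02% in either direction. All 5 had an unadjusted p under 0.05 in that fit, as had 2143 of the 12576 transcripts tested. DESeq2 called 0 and limma-voom 2 of them, against 408 and 708 of all transcripts. Without wild-type replicate 3 edgeR called all 5, against 481 of all transcripts.

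The RPF per RNA of the globins overlapped between genotypes in all 7 genes. The fitted log2 difference in translation efficiency (RPF relative to RNA) was 0.23 (standard error 0.64) for Hba-x, 0.26 (standard error 0.74) for Hbb-y and 0.33 (standard error 0.62) for Hbb-bh1. For Hba-a1 it was -0.07 (standard error 0.67), a sign that changed with the method and with the embryos used. For Hba-a2, on 3 to 22 RPF counts per library, it was 0.87 (standard error 0.75). The fit called 0.0% of the 12576 transcripts, with 559 at an unadjusted p under 0.05, while DESeq2 called 4 and limma-voom 0, none of them a globin. With each embryo as a block, which uses the pairing of its libraries, the differences were 0.13 (standard error 0.11) for Hba-x, 0.21 (standard error 0.09) for Hbb-y, 0.25 (standard error 0.09) for Hbb-bh1, -0.20 (standard error 0.39) for Hba-a1 and 0.81 (standard error 0.40) for Hba-a2. That fit also called 0 transcripts, with 873 at an unadjusted p under 0.05.

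Over all transcripts tested the median log2 difference was 0.00 in RPF, -0.00 in RNA and 0.01 in translation efficiency. Of all RPF counts, globins made up 0.137%, 0.0821% and 0.277% in wild-type and 0.340%, 0.572% and 0.348% in Rpl10a LOF/LOF embryos. In RNA the shares were 0.0699%, 0.0474% and 0.177% in wild-type and 0.159%, 0.256% and 0.198% in Rpl10a LOF/LOF embryos. In these whole-embryo libraries, a larger number of red cells and more globin RNA per cell cannot be told apart.

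Among the 4 embryos with 154 CPM or more of Y-linked reads, the summed globins stood at 1359, 821 and 2768 CPM of RPF in the wild-type embryos and at 5687 CPM in Rpl10a LOF/LOF replicate 2. In RNA they stood at 721, 483 and 1822 CPM in the wild-type embryos and at 2660 CPM in that embryo. The single Rpl10a LOF/LOF embryo of these was thus above the 3 wild-type embryos in both, and above the other Rpl10a LOF/LOF embryos, which had 3487 and 3451 CPM of RPF.

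The make-up of the embryonic beta-like counts also differed between embryos. Hbb-y held 18.5%, 18.6% and 24.6% of the RPF counts of Hbb-y and Hbb-bh1 together in wild-type and 26.0%, 25.1% and 30.3% in Rpl10a LOF/LOF embryos. In RNA it held 23.4%, 20.7% and 26.4% in wild-type and 29.0%, 29.1% and 36.1% in Rpl10a LOF/LOF embryos. Each Rpl10a LOF/LOF embryo was above each wild-type embryo in both libraries, and wild-type replicate 3 had the highest wild-type share. The 95% Wilson interval of that embryo in RPF, 23.9% to 25.2%, overlapped the 24.7% to 25.6% of Rpl10a LOF/LOF replicate 2. In every embryo the Hbb-y share was larger in RNA than in RPF.

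**Figure D3:**
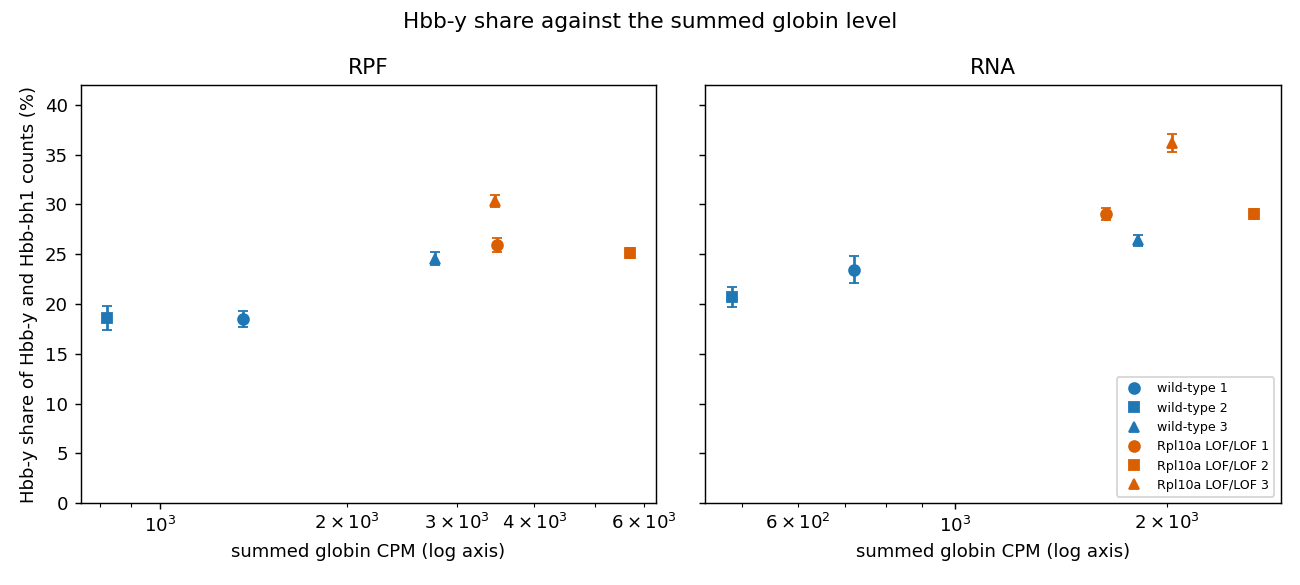
Hbb-y share of the Hbb-y and Hbb-bh1 counts (percent, vertical axis) against the summed CPM of the 7 globins (log axis) in RPF and RNA libraries, with 1 point per embryo and 95% Wilson intervals as bars, which cover counting error only. The 2 wild-type embryos with the lowest globin sums have the lowest Hbb-y shares, and Rpl10a LOF/LOF replicate 3 has the highest share without the highest sum.

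Other genes of the red cell were read from fixed lists. These lists were chosen with earlier results of these data known, so their calls are given as a description. Of 15 globin regulators tested, Klf1, the erythroid factor that binds CACCC boxes in globin promoters, rose in RPF, and the other 14 did not pass, where 1.05% of all transcripts were called higher. Klf1 had 4.11, 2.46 and 7.30 CPM of RPF in wild-type and 10.1, 14.8 and 9.89 CPM in Rpl10a LOF/LOF embryos (log2 difference 1.31, standard error 0.30, FDR = 0.079 in edgeR's test). In RNA its log2 difference was 0.83 (FDR = 0.296). Gata1, the GATA-box factor of red cell development, had a log2 difference of 1.10 in RPF (FDR = 0.145) and 1.08 in RNA (FDR = 0.143), which did not pass. The median over the list was 0.23 in RPF and 0.18 in RNA.

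Of 16 tested genes of heme synthesis and globin assembly, 1 rose in RPF (against 1.05% of all transcripts) and 3 rose in RNA (against 1.77%), and none fell. Alas2, the first enzyme of heme synthesis in red cells, had 12.4, 9.48 and 26.4 CPM of RPF in wild-type and 37.7, 52.2 and 39.0 CPM in Rpl10a LOF/LOF embryos (log2 difference 1.41, standard error 0.29, FDR = 0.056 in edgeR's test). Alas2 also rose in RNA, by 1.15 (FDR = 0.078). Steap3, a ferrireductase, rose in RNA by 0.93 (FDR = 0.072) and Alad, a heme synthesis enzyme that acts after Alas2, by 0.32 (FDR = 0.084). The list medians were 0.33 in RPF and 0.20 in RNA. Ahsp, the alpha globin chaperone, was not analysed here.

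Of 16 red cell membrane genes, 6 rose in RPF (37.5%, against 1.05% of all transcripts) and 3 in RNA (against 1.77%), and none fell. Slc4a1, the band 3 anion exchanger, had 15.6, 9.60 and 30.8 CPM of RPF in wild-type and 44.0, 55.4 and 43.0 CPM in Rpl10a LOF/LOF embryos (log2 difference 1.34, standard error 0.29, FDR = 0.068 in edgeR's test). Epb42 (protein 4.2) and Ank1 (ankyrin) had log2 differences of 1.47 (FDR = 0.093) and 1.30 (FDR = 0.087). The list median was 1.16 in RPF and 1.02 in RNA, and in RPF 14 of the 16 genes were higher.

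The calls in these lists changed with the embryos used. Without wild-type replicate 1, wild-type replicate 2 or Rpl10a LOF/LOF replicate 3, no membrane gene was called in RPF. The list medians in those fits were 1.02, 0.94 and 1.24 in that order, where 12, 4 and 40 of all transcripts were called. Without Rpl10a LOF/LOF replicate 1 there were 2 membrane genes called, and without wild-type replicate 3 there were 8. Without Rpl10a LOF/LOF replicate 2 there were 6, where 1449 of all transcripts were called. With a covariate from Y-linked genes no membrane gene was called in RPF, although the list median was 1.34 and the log2 differences were 1.51 (standard error 0.35) for Slc4a1 and 1.89 (standard error 0.38) for Epb42. With surrogate variables 11 were called. In RNA no membrane gene was called without wild-type replicate 1 or 2, 1 was called without Rpl10a LOF/LOF replicate 2 or 3, 5 without Rpl10a LOF/LOF replicate 1 and 13 without wild-type replicate 3. The RNA list medians without wild-type replicate 1 or 2 were 0.92 and 0.66, against 1.02 with all embryos. No heme gene was called in RPF without wild-type replicate 1, wild-type replicate 2 or Rpl10a LOF/LOF replicate 3, and 3 were called without Rpl10a LOF/LOF replicate 2. No heme gene was called in RNA without wild-type replicate 1 or 2 or Rpl10a LOF/LOF replicate 2 or 3, or with the Y-linked covariate, and 5 were called without wild-type replicate 3. Klf1 was called in the 6 embryos and without either Rpl10a LOF/LOF replicate 2 or wild-type replicate 3, and in no other of these subsets.

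**Figure D4:**
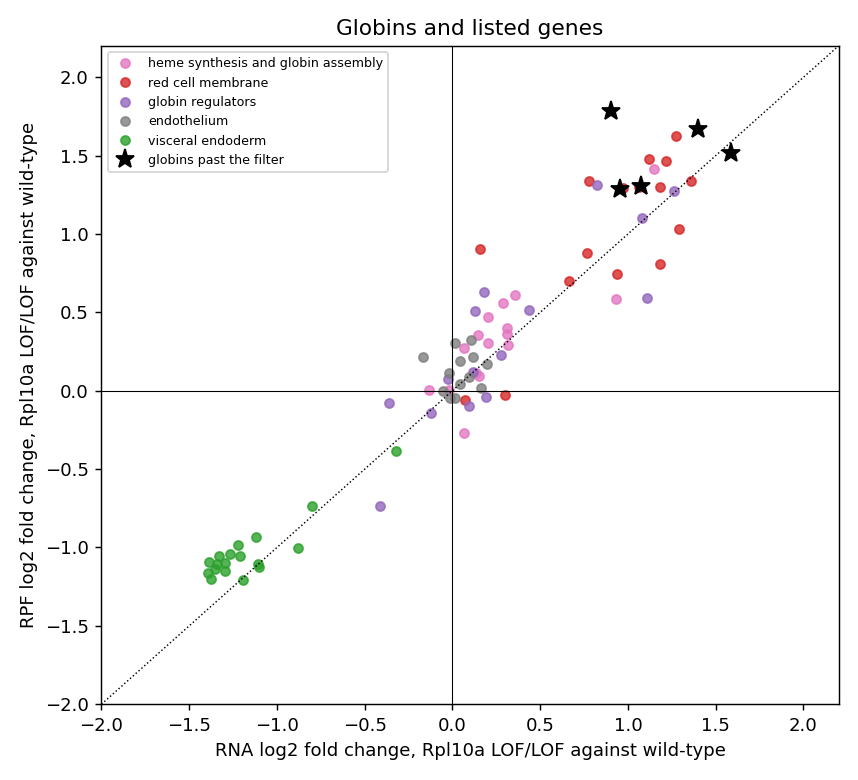
Fitted log2 difference between Rpl10a LOF/LOF and wild-type embryos in RNA (horizontal) and RPF (vertical) for the 5 globins past the filter (stars) and the tested genes of 5 lists (coloured points). The dotted diagonal marks equal differences. The globins and most red cell membrane genes lie in the upper right quadrant, endothelial genes lie near 0, and all visceral endoderm genes lie in the lower left.

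Among the genes whose levels followed the globins most closely were other red cell genes. Among 9400 transcripts with at least 5 CPM on average in both kinds of library, likeness was the smaller of the Pearson correlations of log2 CPM with the log2 of summed globin CPM over the 6 RPF and the 6 RNA libraries. It was 0.986 for Slc4a1, 0.983 for Epb42, 0.982 for Klf1 and 0.977 for Hemgn, a nuclear protein of blood-forming cells. Hemgn had 6.67, 3.39 and 14.4 CPM of RPF in wild-type and 16.03, 22.0 and 14.2 CPM in Rpl10a LOF/LOF embryos, where wild-type replicate 3 lay above Rpl10a LOF/LOF replicate 3. These correlations rest on 6 embryos that also differ in genotype, sex and depth.

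Because Klf1 followed the summed globins, which are nearly all embryonic, and its factor binds CACCC boxes, the globin promoters were searched on both strands for the CACCC box (letters CACCC), the CAAT box (letters CCAAT), the GATA box (letters GATAA) and the TATA box (letters TATAAA or CATAAA). The RefSeq promoters on GRCm38.p6 surround the start site, and 6 members had one. Hbb-bh1 was not among them. All 6 held CACCC and GATAA, which are found in 57.5% and 25.4% of the 32851 promoters listed. CCAAT was in 5 (37.4% of all), TATAAA in Hba-x and Hbb-bt (13.6% of all) and CATAAA in Hbb-y (11.9% of all). The CACCC match nearest to the start is shown in capitals for an embryonic and an adult gene of each cluster, at chr11:32276493-32276522, chr11:32283600-32283629, chr7:103853301-103853330 and chr7:103828001-103828030 in the order shown.
Hba-x: gataacaggctcCACCCtgcaagccccctc
Hba-a1: caagggcgtgtcCACCCtgcctggaggaca
Hbb-y: atgacctggctcCACCCatgaggaccacgg
Hbb-bs: tccgtagagccaCACCCtggtaagggccaa
The matches begin 95, 60, 111 and 90 bases before the RefSeq start site. The GENCODE transcripts of Hba-x and Hba-a1 used for counting start further upstream, so the matches of these 2 genes lie inside the transcript spans listed for them. A match describes these letters and no binding was measured.

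Markers of other cell types were read from the same libraries. Of 18 visceral endoderm genes, a layer that also lines the yolk sac, 16 fell in RPF (against 1.15% of all transcripts called lower) and 18 in RNA (against 3.25%). Apoa2 and Apoa1, apolipoproteins, Amn, an endocytic receptor subunit, and Ctsh, a protease, had the largest RPF differences of those that passed, at -1.21 (FDR = 0.061), -1.16 (FDR = 0.062), -1.20 (FDR = 0.056) and -1.15 (FDR = 0.072). The summed list stood at 7550 to 9819 CPM of RPF in wild-type and 3080 to 5863 CPM in Rpl10a LOF/LOF embryos. In RNA it stood at 3960 to 4959 CPM in wild-type and 1434 to 2964 CPM in Rpl10a LOF/LOF embryos. These genes were opposite in direction to the globins, and their part in the globin difference was not tested. In RPF no gene of this list was called without wild-type replicate 1 or without wild-type replicate 2. The list medians in those fits were -0.97 and -1.08, where 12 and 4 of all transcripts were called. There were 3 called without Rpl10a LOF/LOF replicate 1 or 3, 8 without wild-type replicate 3 and 18 without Rpl10a LOF/LOF replicate 2. With all embryos the list median was -1.10 in RPF and -1.25 in RNA. In RNA the 18 calls became 6 without wild-type replicate 1, with a median of -1.20, and 4 in a robust edgeR fit, with the median at -1.25. With the Y-linked covariate the medians moved to -0.56 in RPF, with 1 call, and to -0.67 in RNA, with 7 calls.

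Of 13 endothelial genes, none was called in RPF or RNA by edgeR, where 1 had an unadjusted p under 0.05 in each. Of the 12576 transcripts tested, 1727 in RPF and 2143 in RNA had such a p. Limma-voom with surrogate variables called 2 endothelial genes in RPF, against 1306 of all transcripts. The list medians were 0.12 and 0.05. The summed endothelial level was 601 to 626 CPM of RPF in wild-type and 570 to 749 CPM in Rpl10a LOF/LOF embryos, so the groups overlapped. No call was made by edgeR among 7 macrophage and leukocyte genes, 6 trophoblast and decidua genes and the 1 platelet lineage gene tested, where p was under 0.05 before adjustment for 2 genes in RPF and for 1 in RNA. Of 8 other globin genes listed, 6 are in the table and none passed the filter, and these 6, including the theta globins Hbq1a and Hbq1b, myoglobin (Mb) and cytoglobin (Cygb), summed to at most 2.00 CPM of RPF and 1.83 CPM of RNA in any embryo.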

How the data were processed

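RPF and RNA libraries came from the same 6 embryos. The authors trimmed reads with UMI-tools, FASTX-Toolkit and cutadapt, used bowtie2 to drop reads from structural RNAs (rRNA, tRNA, snRNA), aligned what was left to knownCanonical GENCODE transcripts of GRCm38/mm10 and collapsed PCR duplicates by molecular identifier. RPF reads were offset to the A site and counted in the CDS without the first 15 and last 5 codons, and RNA reads over the whole transcript. The authors deposited these as raw counts per transcript, not normalized. The authors' own comparison used voom, limma, sva and locfdr.

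Transcripts above 0.75 CPM in 3 or more RPF libraries were tested (12576 of 22467), with TMM scaling of RPF and RNA separately. Genotypes were compared by edgeR 4.0.16 in R 4.3.3 with its quasi-likelihood test, Benjamini-Hochberg adjustment over all transcripts tested and an FDR threshold of 0.1. Translation efficiency was the interaction of genotype and library kind over 12 libraries. DESeq2 1.42.0, limma-voom (limma 3.58.1) and sva 3.50.0 were alternatives, and the fits were tested on simulated data. Levels between genes were compared per kilobase. Symbols and positions came from a GENCODE annotation of GRCm38, which held 22464 of the 22467 identifiers. Intervals are Wilson intervals at 95%, the limit of a count of 0 is 3 counts, and both cover counting error only.

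The members and gene lists were chosen with earlier results of these data known. Genes named were all members, Rpl10a, Gata1, Klf1, Alas2 and Ahsp, of each list at most the 4 called genes with the largest RPF difference, and the 5 genes most like the summed globins. Some genes that meet these criteria are not reported here. Hbq1a, Hbq1b, Mb and Cygb are named as members of their list. Samples were grouped by genotype and library kind from the labels. Across transcripts, deviations from the group means correlated between the RPF and RNA libraries of each embryo (r from 0.191 to 0.403), which come from 1 lysate. The same replicate numbers in both genotypes belong to different embryos. P-values measure the spread between 3 single embryos per genotype.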

Additional observations from a re-analysis of the deposited data

How the results depend on the processing

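Of the 5 globins past the filter, edgeR called 2 higher in RPF, RLE size factors and leaving globins out of the library sizes also gave 2, and the count moved to 1 with a robust edgeR fit (added after seeing the data), 5 without a filter, 0 with the Y-linked covariate (log2 differences of 1.64 to 2.00), 0 in DESeq2 (where Hba-a2 had no adjusted p), 5 in limma-voom and 5 with surrogate variables. In RNA, where edgeR called 0, the count was 1 in the robust fit, 4 without a filter, 2 in limma-voom and 2 with surrogate variables. With embryos left out in turn it ran from 0 to 5 in RPF and from 0 to 5 in RNA, with 5 only without wild-type replicate 3. The replicate block, whose numbers mark different embryos, gave 4 in RPF and 3 in RNA, and same-number correlations ran from -0.10 to 0.08. In translation efficiency the count was 0 in every fit, with the replicate block and the replicate block by embryo included. The RPF log2 difference of every member fitted was positive in each alternative, and only the translation efficiency of Hba-a1, -0.07, changed sign, to 0.065 in limma-voom and, within a leave-out range of -0.32 to 0.12, to 0.12, 0.09 and 0.08 without Rpl10a LOF/LOF replicate 3, wild-type replicate 2 and wild-type replicate 3.

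RPF per RNA moved to 2.81 for Hba-a1, -4.49 for Hbb-bs and -3.26 for Hbb-bt per window found in no other transcript, and without length correction to 1.06 for Hbb-y and 1.34 for Hbb-bh1. The embryonic share of alpha-like RPF counts went from 99.7% to 99.9% with 1 copy per adult pair. Over all transcripts, RPF calls numbered 276 by edgeR, 437 without a filter, 1306 with surrogate variables, 28 with the Y-linked covariate and 4 to 1449 with embryos left out. RNA calls numbered 631, 408 in DESeq2, 64 with the covariate and 138 to 594 with embryos left out. Translation efficiency had 26 calls without Rpl10a LOF/LOF replicate 2. The visceral endoderm list had 16 RPF calls by edgeR, 7 in DESeq2, 2 in the robust fit and 1 with the covariate, and the membrane list 2 in the robust fit. The heme list had 11 RPF calls with surrogate variables and 4 in DESeq2. The causes were not tested. The adult beta genes had 0 to 20 RPF counts per library, which limits what can be read about them.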
